A study of Mus musculus with 9 samples.

Results

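Prg4, the gene of the joint-coating proteoglycan lubricin, changed more than any other of 10 marker genes of cartilage, joint and tendon when mouse bone marrow stromal cells were cultured in osteoblastic medium. Prg4 was 7.74-fold higher after 14 days and 12.9-fold higher after 28 days than in undifferentiated cells. The 10 genes are Prg4, Sox9, Sox5, Sox6, Acan, Chad, Cilp, Matn2, Scx and Tnmd, out of 22180 genes measured. They were found by exact gene symbol in the annotation of the array's probe sets, leaving out probe sets assigned to several genes, and each of the 10 had 1 probe set.

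The cells, called MSC2, are a clonal line of stromal cells from the marrow of C57BL/6 mice aged 6 weeks, so all cultures descend from 1 clone. The 3 groups, each with 3 arrays, were undifferentiated cells, cells induced for 14 days and cells induced for 28 days. Undifferentiated cells were kept in alpha-MEM lacking ascorbic acid. Induction began at confluence and used DMEM to which pyruvate (1 mM), beta-glycerophosphate (10 mM), ascorbate phosphate (0.2 mM) and dexamethasone (0.1 µM), a glucocorticoid, had been added; serum was 10% in both media. Medium, confluence and time in culture differ between induced and undifferentiated cells together with induction, and these cannot be told apart.

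Cartilage forms when mesenchymal cells turn on the transcription factor SOX9, which in mice works with SOX5 and SOX6 to activate genes of the cartilage matrix such as Acan, the gene of aggrecan, and Col2a1, the gene of collagen II. Cells at the surface of articular cartilage and in the lining of the joint secrete lubricin. Tendon cells express the transcription factor scleraxis, the product of Scx, and the membrane protein tenomodulin, the product of Tnmd, which in mice depends on Scx.

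Values are log2 signals centred on the median of each probe set over the 9 arrays. A value of 0 is thus the middle of the 9 arrays and not an absence of RNA. No absolute level can be read from centred values, so neither levels of different genes nor the absence of a marker, including markers of the labelled cell type, can be judged. More cells expressing a gene and more RNA per cell cannot be told apart in such bulk samples. The SD of all genes' values was 0.439 to 0.447 in undifferentiated arrays, 0.0827 to 0.103 in 14-day arrays and 0.153 to 0.161 in 28-day arrays, and 15.2% to 28.1% of an array's values were exactly 0. Differences were tested with limma over all genes, and a gene was called at a Benjamini-Hochberg adjusted p under 0.05.

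Of the 10 genes, 6 were higher and 0 lower at 14 days than in undifferentiated cells by limma, namely Prg4, Matn2, Sox9, Scx, Sox5 and Chad; of all genes 35.7% were called, 18.2% higher and 17.5% lower. At 28 days 8 were higher and 0 lower by limma, Sox6 and Cilp being added; of all genes 39.9% were called, 20.4% higher and 19.5% lower. At an unadjusted p under 0.05 the counts were 7 higher and 0 lower at 14 days (21.2% and 20.4% of all genes) and 8 higher and 0 lower at 28 days (24.1% and 21.9% of all genes). Arrays of the 2 groups did not overlap for 8 genes at 14 days (44.8% of all genes) and for 7 at 28 days (46.6% of all genes).

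The median log2 fold change of the 10 genes was 0.27 at 14 days and 0.37 at 28 days, beside 0.0048 and 0.017 over all genes. Both comparisons use the same 3 undifferentiated arrays. Most changes were small: Prg4 and Matn2 alone were called at least 2-fold higher, 2 of 10 at each time, beside 2.66% of all genes at 14 days and 3.26% at 28 days. With the values quantile-normalized again, 3 of the 10 were called at 14 days (Prg4, Matn2 and Sox9) and 5 at 28 days (Sox5 and Sox6 in addition). That step gives all arrays the same distribution, although the SD of the centred values differed between the groups. A call lost or a change made smaller or larger in this way, here and below, can thus come from the step itself. Whether it does was not tested.

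**Figure D1:**
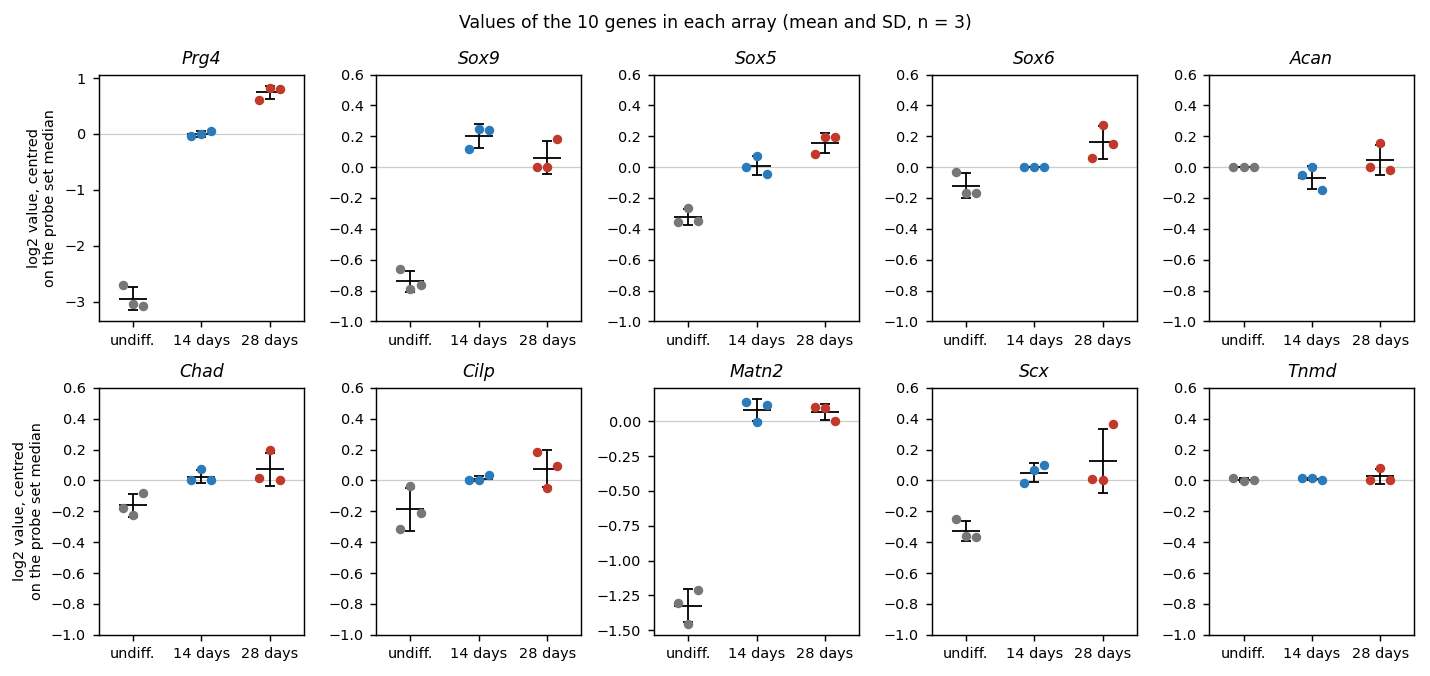
Centred log2 values (vertical axis) of the 10 genes in the 9 arrays, by group, with the mean and SD of the 3 arrays in each group; Prg4 and Matn2 have their own vertical scales and the other 8 share one. Undifferentiated arrays average -2.95 for Prg4 and -1.32 for Matn2, below all induced arrays, whereas Acan and Tnmd lie near 0 in all 3 groups.

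Prg4 (probe set 17227892) stood at -2.71, -3.05 and -3.08 in undifferentiated cells, at -0.043, 0 and 0.061 after 14 days and at 0.61, 0.82 and 0.80 after 28 days. No array of a group overlapped those of another group. Prg4 rose by 2.95 on the log2 scale at 14 days (limma, SE 0.096, adjusted p = 3.56e-09) and by 3.69 at 28 days (limma, SE 0.096, adjusted p = 4.84e-10). With the centred values quantile-normalized again these became 1.39 and 2.46, still called. Among all genes, ordered from the largest rise down, Prg4 was at place 46 at 14 days and at place 25 at 28 days.

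Prg4 was also the one gene of the 10 called between 28 and 14 days, where 7.39% of all genes were called, 2.72% higher and 4.67% lower. It averaged 0.75 ± 0.12 at 28 days and 0.0058 ± 0.052 at 14 days (SD, n = 3 each). The rise was 0.74 on the log2 scale (limma, SE 0.096, adjusted p = 0.00116), or 1.67-fold. In a test against a 1.5-fold change it was not called (limma adjusted p = 1).

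Matn2 encodes matrilin-2, an adaptor protein of the extracellular matrix that is found in many connective tissues besides cartilage. Its probe set 17310922 stood at -1.31, -1.45 and -1.21 in undifferentiated cells, at 0.14, -0.0066 and 0.12 after 14 days and at 0.11, 0.098 and 0 after 28 days. All induced arrays lay above all undifferentiated arrays, and the arrays of the 2 induced groups overlapped. Matn2 rose by 1.41 on the log2 scale at 14 days (limma, SE 0.067, adjusted p = 5.88e-08), which is 2.65-fold, and by 1.39 at 28 days (limma, SE 0.067, adjusted p = 4.7e-08). With quantile normalization repeated the changes were 0.80 and 0.73, both called. Between 28 and 14 days the difference was -0.015 with a 95% interval of -0.16 to 0.13.

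**Figure D2:**
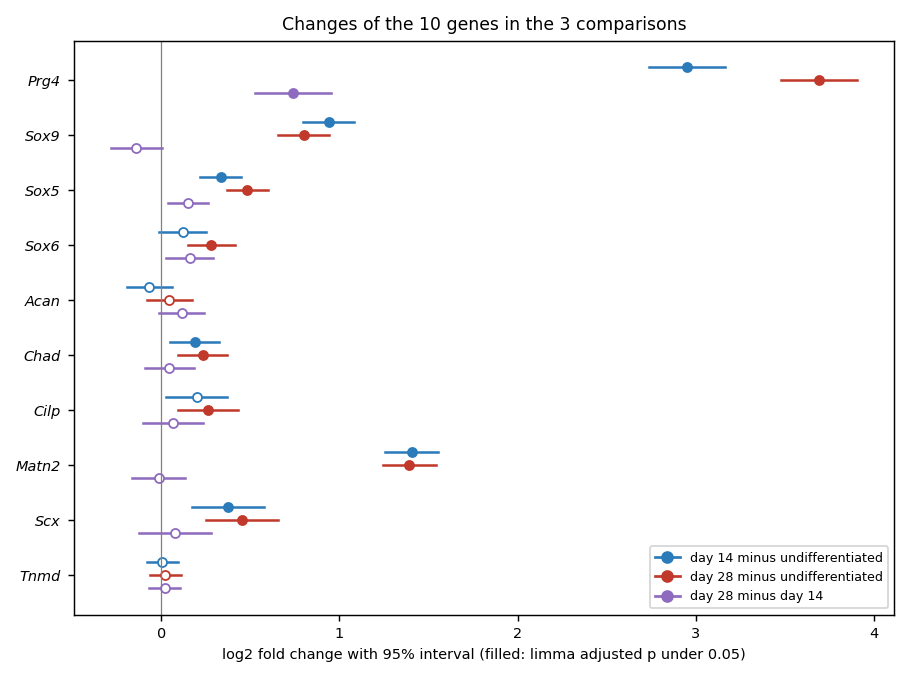
Log2 fold changes (horizontal axis) of the 10 genes with 95% intervals for 14 days against undifferentiated, 28 days against undifferentiated and 28 against 14 days; filled points were called by limma. Prg4 reaches 3.69 at 28 days and has the one filled point for 28 against 14 days, and Acan and Tnmd have no filled point.

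The SOX transcription factors bind DNA through a shared HMG box. Sox9 (probe set 17257946) stood at -0.66, -0.79 and -0.77 in undifferentiated cells, at 0.11, 0.25 and 0.24 after 14 days and at 0, 0 and 0.18 after 28 days. Induced arrays did not overlap undifferentiated ones. Sox9 rose by 0.94 at 14 days (limma, SE 0.064, adjusted p = 8.69e-07), or 1.92-fold, and by 0.80 at 28 days (limma, SE 0.064, adjusted p = 2.43e-06), or 1.74-fold. The rise at 28 days was 0.46 with quantile normalization repeated, still called. The 28-day and 14-day arrays overlapped, and 28 minus 14 days gave -0.14 (95% interval -0.28 to 0.0028, limma adjusted p = 0.255). With quantile normalization repeated that difference was -0.42, not called (limma adjusted p = 0.0832).

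Sox5 and Sox6 encode close relatives of each other that lack an activation domain and assist SOX9. Sox5 (probe set 17472641) stood at -0.36, -0.27 and -0.35 in undifferentiated cells, at 0, 0.073 and -0.046 after 14 days and at 0.084, 0.19 and 0.20 after 28 days, with no overlap between any 2 groups. It was higher by 0.33 at 14 days (limma, SE 0.051, adjusted p = 0.000381) and by 0.48 at 28 days (limma, SE 0.051, adjusted p = 2.06e-05). The 14-day call was lost when values were quantile-normalized again (limma adjusted p = 0.0768), where the change was 0.21. The step of 0.15 between 28 and 14 days was not called (limma adjusted p = 0.123).

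Sox6 (probe set 17495340) stood at -0.029, -0.16 and -0.16 in undifferentiated cells, at 0, 0 and 0 after 14 days and at 0.062, 0.27 and 0.15 after 28 days. The groups did not overlap, though the highest undifferentiated array was close to the 14-day value. Sox6 was 1.21-fold higher at 28 days, a log2 change of 0.28 (limma, SE 0.059, adjusted p = 0.00305), and its difference of 0.12 at 14 days was not called (limma adjusted p = 0.161). Its 3 identical values at 14 days show no spread in that group.

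RefSeq promoter sequences (assembly GRCm38.p6) were at hand for 6 of the 10 genes, in 11 windows of 300 bases that run from 250 bases before to 50 after a start. A Sox5, a Sox6 and the Chad window are shown, since these genes were called at 28 days and their windows hold different motifs. Capitals mark the letters ACAAAG and ACAATG, which are forms of the SOX binding motif, and the TATA box letters TATAAA, each searched on both strands. The windows are chr6:143947057-143947356 (minus strand) for Sox5, chr7:116038695-116038994 (minus strand) for Sox6 and chr11:94564797-94565096 (plus strand) for Chad. The Sox5 and Sox6 windows lie inside the annotated genes, chr6:143828425-144782287 and chr7:115470872-116040776. Each thus belongs to an internal start and not to the outermost start of its gene.
Sox5: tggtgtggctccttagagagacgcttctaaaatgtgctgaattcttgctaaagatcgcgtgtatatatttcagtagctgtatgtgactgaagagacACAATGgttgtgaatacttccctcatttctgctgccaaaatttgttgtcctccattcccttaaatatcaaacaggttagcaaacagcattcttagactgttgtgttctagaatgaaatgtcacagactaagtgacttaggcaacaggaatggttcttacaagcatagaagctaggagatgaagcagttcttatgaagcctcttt
Sox6: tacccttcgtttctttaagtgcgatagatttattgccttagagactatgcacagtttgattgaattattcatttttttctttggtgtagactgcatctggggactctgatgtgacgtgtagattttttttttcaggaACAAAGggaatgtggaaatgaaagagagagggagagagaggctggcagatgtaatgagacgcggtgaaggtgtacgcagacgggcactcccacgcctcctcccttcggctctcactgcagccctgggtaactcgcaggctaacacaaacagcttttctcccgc
Chad: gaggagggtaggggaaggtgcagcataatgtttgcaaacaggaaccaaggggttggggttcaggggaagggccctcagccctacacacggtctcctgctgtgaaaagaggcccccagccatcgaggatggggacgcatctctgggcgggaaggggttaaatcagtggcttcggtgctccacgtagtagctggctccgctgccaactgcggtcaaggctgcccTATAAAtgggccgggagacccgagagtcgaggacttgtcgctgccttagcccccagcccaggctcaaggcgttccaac
Counted from the start, ACAATG lies at -154 in the Sox5 window, ACAAAG at -113 in the Sox6 window and TATAAA at -28 in the Chad window. Of all 32851 promoter windows of this length, 12.6% hold ACAATG, 18.7% hold ACAAAG and 13.6% hold TATAAA. Either SOX motif occurs in 7 of the 11 windows, 5 of them among the 6 Sox6 windows, beside 28.6% of all windows. Windows of 1 gene are not independent of each other, and a match describes letters, not binding. The full palindromic glucocorticoid response element was found in 0 of the 11 windows and in 0.00913% of all windows.

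The SOX family was described through 15 further members. At 14 days 1 was higher and 2 were lower, beside 18.2% and 17.5% of all genes. At 28 days 2 were higher and 1 lower, beside 20.4% and 19.5% of all genes. Most members were thus not called, which also holds for all genes. Sox4, which is expressed in many progenitor cells, was 2.30-fold higher at 14 days (limma, SE 0.10, adjusted p = 4e-06) and 2.51-fold higher at 28 days (limma, SE 0.10, adjusted p = 1.54e-06), with both SE on the log2 scale. Both Sox4 calls were lost with quantile normalization repeated (limma adjusted p = 0.227 and 0.0687). Sox11, a close relative of Sox4, was at -0.54 at 14 days (limma, SE 0.080, adjusted p = 0.000286), a call likewise lost (adjusted p = 0.0820), and at -0.78 at 28 days (limma, SE 0.080, adjusted p = 1.57e-05). Sox12, of the same subgroup, was at -0.26 at 14 days (limma, SE 0.044, adjusted p = 0.000854) and at -0.086 at 28 days, not called. Sox18, a factor of vessel endothelium, was higher at 28 days by 0.30 (limma, SE 0.074, adjusted p = 0.00803), a call lost with quantile normalization repeated (adjusted p = 0.0542). Of the nearest relatives of Sox9, Sox8 was at 0.093 and -0.071 and Sox10 at -0.015 and 0.090 on the log2 scale at 14 and 28 days. Sox13, which belongs with Sox5 and Sox6, was at -0.12 and -0.10. None of these 3 was called by limma in any of the 3 comparisons, and at an unadjusted p under 0.05 none passed either.

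**Figure D3:**
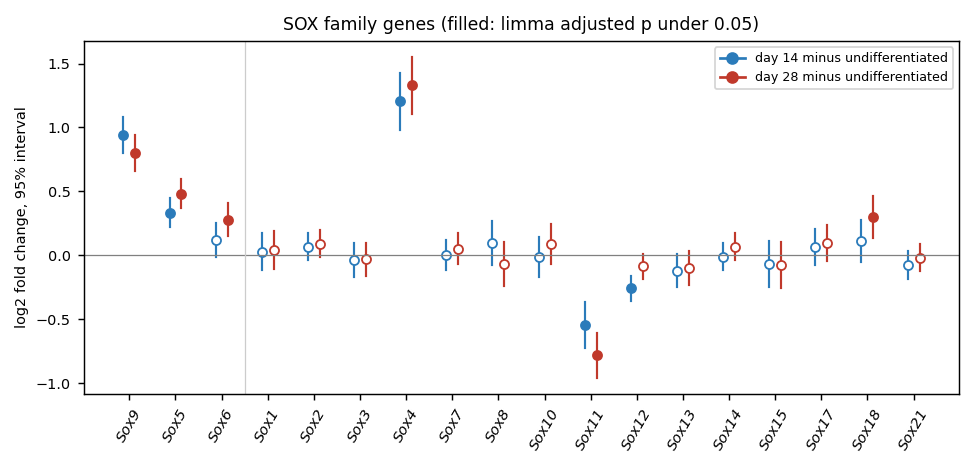
Log2 fold changes (vertical axis) of Sox9, Sox5, Sox6 and 15 other SOX genes at 14 and 28 days against undifferentiated cells, with 95% intervals; filled points were called by limma. At 28 days Sox4 lies at 1.33 and Sox9 at 0.80, and Sox11 lies at -0.78.

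Acan, Chad and Cilp, which encode proteins of the cartilage matrix, changed little. Acan (probe set 17479335) stood at 0, 0 and 0 in undifferentiated cells, at -0.052, 0 and -0.15 after 14 days and at 0, 0.16 and -0.019 after 28 days. Its identical undifferentiated values show no spread in that group. The groups overlapped, and the 95% intervals of the log2 fold change were -0.19 to 0.059 at 14 days and -0.081 to 0.17 at 28 days, with limma adjusted p-values of 0.436 and 0.585.

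Chad encodes chondroadherin, a leucine-rich repeat protein that binds collagen and integrins. Its probe set 17255227 stood at -0.18, -0.22 and -0.082 in undifferentiated cells, at 0, 0.076 and 0 after 14 days and at 0.015, 0.20 and 0 after 28 days. Induced arrays lay above undifferentiated ones by a small margin. Chad was higher by 0.19 at 14 days (limma, SE 0.062, adjusted p = 0.0372) and by 0.23 at 28 days (limma, SE 0.062, adjusted p = 0.0113). The 14-day call was lost without undifferentiated replicate 1 or 2 or without any 1 of the 3 day-14 arrays (limma adjusted p = 0.0659 to 0.127). Quantile normalization again ended both calls (adjusted p = 0.258 at 14 days and 0.143 at 28 days).

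Cilp encodes a protein of the middle layer of articular cartilage that restrains growth factor signalling. Its probe set 17518512 stood at -0.31, -0.037 and -0.21 in undifferentiated cells, at 0, 0.0023 and 0.033 after 14 days and at 0.19, -0.051 and 0.093 after 28 days. Of the 28-day arrays 1 lay below the highest undifferentiated array. Cilp was not called at 14 days, with a difference of 0.20 (limma adjusted p = 0.0703), although it was called without undifferentiated replicate 2 (adjusted p = 0.0142). At 28 days it was higher by 0.26 (limma, SE 0.076, adjusted p = 0.0184). That call was lost without undifferentiated replicate 1 or 3 or without day-28 replicate 1 or 3 (limma adjusted p = 0.0522 to 0.0730) and with quantile normalization repeated (adjusted p = 0.104).

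Of the tendon genes, Scx was called at both times and Tnmd at neither; the difference between the 2 genes was not tested. Scx (probe set 17312480) stood at -0.25, -0.36 and -0.37 in undifferentiated cells, at -0.018, 0.068 and 0.099 after 14 days and at 0.011, 0 and 0.37 after 28 days. Induced arrays did not overlap undifferentiated ones, and 28-day replicate 3 was above the rest of its group. Scx rose by 0.38 at 14 days (limma, SE 0.090, adjusted p = 0.00734) and by 0.45 at 28 days (limma, SE 0.090, adjusted p = 0.00212), or 1.37-fold. With quantile normalization repeated the changes were 0.29 and 0.36 and neither was called (limma adjusted p = 0.176 and 0.0883).

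Tnmd (probe set 17537581) stood at 0.018, -0.0039 and 0 in undifferentiated cells, at 0.014, 0.013 and 0 after 14 days and at 0, 0.082 and 0 after 28 days. The groups overlapped. Its log2 fold changes were 0.0044 (95% interval -0.082 to 0.091) at 14 days and 0.023 (-0.064 to 0.11) at 28 days, with limma adjusted p-values of 0.958 and 0.705.

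Ordered by log2 fold change at 28 days, the 10 genes ran Prg4, Matn2, Sox9, Sox5, Scx, Sox6, Cilp, Chad, Acan and Tnmd. As reported, the 95% intervals of Prg4 and Matn2 were separate from each other and from those below, whereas from Sox5 down each interval overlapped the next. The lower bound of Sox9, 0.657, was just above the upper bound of Scx, 0.653; with quantile normalization repeated Sox9 was at 0.46 (SE 0.13) beside Matn2 at 0.73 (SE 0.077) and Sox5 at 0.39 (SE 0.073), and the place of Sox9 in the order was not separate there. Between 28 and 14 days the arrays did not overlap for 3 genes (24.4% of all genes), Prg4, Sox5 and Sox6, and these were also the 3 with an unadjusted p under 0.05, all higher (8.73% of all genes were higher and 11.6% lower at that threshold).

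Further genes of these tissues were taken as lists, chosen with earlier results of these data known. For the counts of this list and those below, the shares over all genes were 18.2% higher and 17.5% lower at 14 days. At 28 days they were 20.4% higher and 19.5% lower. Of 20 other cartilage matrix genes, 1 was higher and 1 lower at 14 days and 4 were higher and 0 lower at 28 days, with list medians of 0.010 and 0.011. With quantile normalization repeated 1 was higher at 14 days and 2 at 28 days, and 0 were lower. Col2a1 was at 0.13 at 14 days, not called, and at 0.16 at 28 days (limma, SE 0.053, adjusted p = 0.0339), a call lost with quantile normalization repeated (adjusted p = 0.183). Fmod, the gene of fibromodulin, which regulates collagen fibril assembly, was higher at 28 days by 0.59 (limma, SE 0.087, adjusted p = 0.000262). Cilp2, the relative of Cilp, was higher by 0.34 (limma, SE 0.063, adjusted p = 0.00134). Col11a1, the gene of a collagen XI chain, was higher at 14 days by 0.50 (limma, SE 0.064, adjusted p = 0.000109) and was at -0.051 at 28 days, not called; 28 minus 14 days gave -0.55 (limma, SE 0.064, adjusted p = 0.000631). Prelp, the gene of a collagen-anchoring protein, was at -0.30 at 14 days (limma, SE 0.079, adjusted p = 0.0111), and Cytl1, a cytokine-like gene of cartilage, at 0.20 at 28 days (limma, SE 0.068, adjusted p = 0.0437); both calls were lost with quantile normalization repeated (adjusted p = 0.0837 and 0.399).

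Of 10 measured chondrocyte regulators, 1 was higher and 4 were lower at 14 days and 1 was higher and 3 were lower at 28 days; with quantile normalization repeated 2 were lower at each time. Fgfr3, a receptor that restrains growth plate chondrocytes, was at -0.43 at 14 days (limma, SE 0.084, adjusted p = 0.00204) and at -0.27 at 28 days (limma, SE 0.084, adjusted p = 0.0269), the second call being lost in that way (adjusted p = 0.301). Pth1r, the receptor for parathyroid hormone and its related peptide, rose by 0.66 and 1.03. Wwp2, which encodes a ubiquitin ligase, was at -0.61 and -0.65. Trps1, a repressor active in growth plate cells, was at -0.23 and -0.50, and its 14-day call was lost with quantile normalization repeated (limma adjusted p = 0.159).

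Genes of hypertrophic chondrocytes, the enlarged cells that precede bone in the growth plate, were higher in 3 of 7 and lower in 0 at 14 days and higher in 4 and lower in 1 at 28 days, with medians of 0.094 and 0.63. Mmp13, the gene of a collagenase that bone cells also make, stood at -1.60, -1.18 and -1.49 in undifferentiated cells, at 0.15, 0 and -0.093 after 14 days and at 0.45, 0.40 and 0.29 after 28 days. All induced arrays lay above the undifferentiated ones. Mmp13 rose by 1.44 at 14 days (limma, SE 0.10, adjusted p = 1.16e-06) and by 1.80 at 28 days (limma, SE 0.10, adjusted p = 1.66e-07). Col10a1, the gene of collagen X, was at 0.094 at 14 days, not called, and rose by 0.77 at 28 days (limma, SE 0.10, adjusted p = 0.000113). Mef2c, a transcription factor of chondrocyte hypertrophy, rose by 0.50 and 0.63. Panx3, the gene called lower at 28 days, averaged 0.099 in undifferentiated cells, -0.052 after 14 days and -0.20 after 28 days. In the same order Runx3 averaged 0.11, -0.14 and -0.12 and Ihh -0.061, 0.031 and 0.049. Neither of these was called at either time. With quantile normalization repeated 4 genes of the list were higher and 0 lower at 28 days.

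The joint lining list was made of 11 genes that mark or regulate the cells that secrete lubricin. At 14 days 6 were higher and 1 lower, beside 18.2% and 17.5% of all genes. At 28 days 6 were higher and 2 lower, beside 20.4% and 19.5% of all genes. The list medians were 0.22 and 0.35. With quantile normalization repeated 3 were higher and 1 lower at 14 days, and 6 were higher and 2 lower at 28 days. Clu, the gene of the secreted chaperone clusterin, stood at -2.46, -2.66 and -2.86 in undifferentiated cells, at 0.019, -0.011 and 0 after 14 days and at 0.37, 0.35 and 0.46 after 28 days. The groups did not overlap. Clu rose by 2.66 at 14 days (limma, SE 0.084, adjusted p = 2.91e-09) and by 3.05 at 28 days (limma, SE 0.084, adjusted p = 7.45e-10); at 28 days the rise was 1.86 with quantile normalization repeated. Cd55, which protects cells from complement and marks lining fibroblasts, rose by 1.77 and 1.62.

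Regulators of Prg4 in that list differed in direction. Creb5, which drives Prg4 in bovine superficial chondrocytes, stood at 0.89, 0.90 and 0.85 in undifferentiated cells, at 0, -0.21 and -0.063 after 14 days and at -0.34, -0.32 and 0.023 after 28 days. It was at -0.97 on the log2 scale at 14 days (limma, SE 0.092, adjusted p = 1.12e-05) and at -1.09 at 28 days (limma, SE 0.092, adjusted p = 3.68e-06), with induced arrays below undifferentiated ones. Foxo1, which sustains Prg4 in mouse cartilage, was higher by 0.22 at 14 days (limma, SE 0.073, adjusted p = 0.0409) and by 0.53 at 28 days (limma, SE 0.073, adjusted p = 0.000158); with quantile normalization repeated the 14-day change was 0.050 and not called (adjusted p = 0.801). Erg, a transcription factor of both articular cartilage and endothelium, rose by 1.18 and 1.33. Tspan15, a membrane protein gene, rose by 0.52 and 1.12, the first of these not called with quantile normalization repeated (adjusted p = 0.500). Foxo3, of the same list, averaged -0.33 in undifferentiated cells, 0.0084 after 14 days and 0.024 after 28 days. In the same order Clic5 averaged 0.12, -0.0012 and -0.18.

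**Figure D4:**
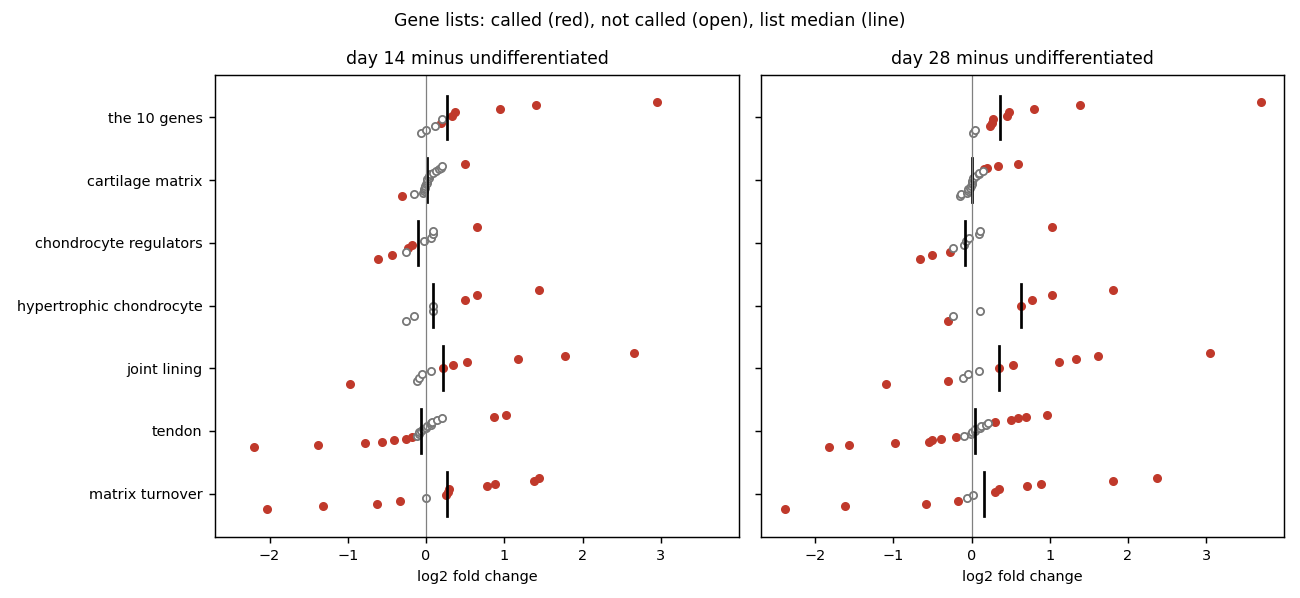
Log2 fold changes (horizontal axis) at 14 days (left) and 28 days (right) against undifferentiated cells for the 10 genes and for 6 lists of related genes; each point is a gene, red points were called by limma and black lines are medians. At 28 days the median is 0.37 for the 10 genes, 0.35 for the joint lining list and 0.011 for the cartilage matrix list.

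Of 21 other tendon genes, 2 were higher and 7 lower at 14 days and 5 were higher and 7 lower at 28 days. Tnc, the gene of tenascin C, was at -2.20 and -1.83, and Col12a1, a collagen gene of tendon and other dense tissue, at -1.38 and -1.57. Eya1, a transcriptional coactivator gene, was at -0.78 and -0.98. Egr1 and Egr2, early response factors that also act in tendon, were not called at 14 days, at -0.040 and -0.089, and were higher at 28 days, by 0.51 (limma, SE 0.079, adjusted p = 0.000375) and 0.29 (limma, SE 0.047, adjusted p = 0.000456). Dcn, the gene of decorin, rose by 0.87 and 0.97. Tppp3, which marks tendon sheath cells, rose by 1.02 at 14 days (limma, SE 0.052, adjusted p = 1.04e-07) and by 0.70 at 28 days, the second call being lost with quantile normalization repeated (limma adjusted p = 0.0545). Mkx, a transcription factor of tendon chosen for mention after its values were seen, was at -0.066 at 14 days, not called, and at -0.20 at 28 days (limma, SE 0.052, adjusted p = 0.0108).

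Matrix proteases and their regulators were higher in 7 of 12 and lower in 4 at 14 days, and higher in 6 and lower in 4 at 28 days. Adamts5, the gene of an aggrecan-cleaving protease, stood at 2.08, 2.06 and 1.97 in undifferentiated cells, at 0.014, 0 and -0.0055 after 14 days and at -0.40, -0.35 and -0.30 after 28 days. The groups did not overlap, and undifferentiated cells were highest. Adamts5 was at -2.03 on the log2 scale at 14 days (limma, SE 0.045, adjusted p = 3.05e-10) and at -2.39 at 28 days (limma, SE 0.045, adjusted p = 5.77e-11). Adamts1, a related protease gene, was at -1.32 and -1.61. Adamts4, the gene of another aggrecan-cleaving protease, was at 0.25 at 14 days (limma, SE 0.065, adjusted p = 0.0109) and at -0.056 at 28 days, not called. Mmp3, the gene of stromelysin 1, rose by 1.39 and 2.38, its 14-day call being lost with quantile normalization repeated (adjusted p = 0.156).

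Genes nearest to a marker were those with the smallest root mean square difference over the 9 arrays, after both had been centred on their own mean, among 8091 named genes called by limma's F test over the 3 groups. Of all genes 39.2% were called by that F test, as were 8 of the 10. Nearest to Prg4 were Adgrg1 at 0.083 and Adgrd1 at 0.13, both adhesion receptor genes, and Lrp2, the gene of the endocytic receptor megalin, at 0.15. Their log2 fold changes at 28 days were 3.68, 3.75, 3.54, and 2 genes lay within a difference of 0.15 of Prg4. Nearest to Matn2 were Gata6os, Rab31, Ctnnal1, at 0.063 to 0.073, with 120 genes within 0.15. Nearest to Sox9 were Acot1, Tmem41a, Glmp, at 0.043 to 0.065, with 447 genes within 0.15. The other called genes varied little over the 9 arrays, with a root mean square deviation from their own mean of 0.12 to 0.22, so a small difference from another gene says little about a shared pattern. Nearest were Mmp17, Ccdc32 and Fam3a to Sox5, Clmn, Acvrl1 and Cartpt to Sox6, Evpl, Irs3 and Asb16 to Chad, Pick1, Ptcd1 and Cwc25 to Cilp and Ppp1r13l, Fam83h and Dazap2 to Scx.

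**Figure D5:**
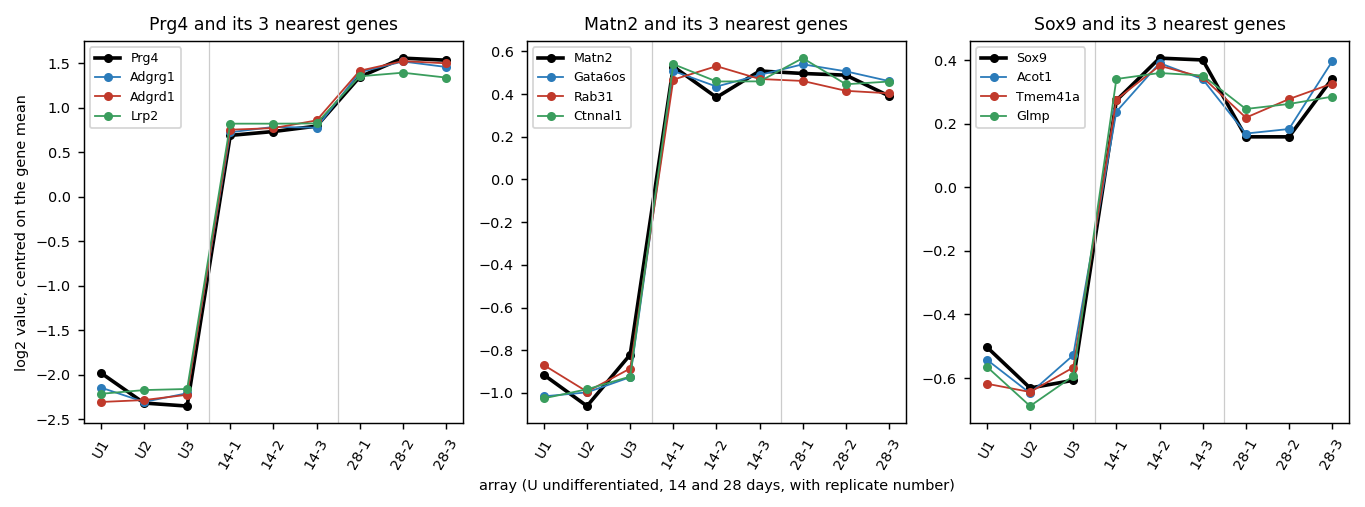
Log2 values centred on the gene mean (vertical axis) in the 9 arrays (horizontal axis) for Prg4, Matn2 and Sox9, each with its 3 nearest genes among those called by the F test. Adgrg1 follows Prg4 with a root mean square difference of 0.083, and in each panel undifferentiated arrays lie below all induced arrays.

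Marker lists of other cells also changed beside the 10 genes. Of all genes, 18.2% were higher and 17.5% lower at 14 days, and 20.4% were higher and 19.5% lower at 28 days. Dividing-cell markers were lower in 3 of 3 at both times, with a list mean of 1.73 to 1.78 in undifferentiated arrays, -0.038 to 0.0093 after 14 days and -0.81 to -0.80 after 28 days. Endothelial markers were higher in 3 of 5 at 14 days and 4 of 5 at 28 days, and in 2 and 1 with quantile normalization repeated. Their median log2 fold changes were 0.18 and 0.15, with list means of -0.58 to -0.53 in undifferentiated arrays, 0.042 to 0.12 after 14 days and -0.00063 to 0.085 after 28 days. Macrophage markers were higher in 3 of 6 at both times, and in 2 and 3 with quantile normalization repeated. Their list means were -0.84 to -0.68 in undifferentiated arrays, -0.060 to 0.040 after 14 days and 0.098 to 0.15 after 28 days. The median log2 fold changes were 0.17 and 0.37. The higher genes were Cd14, Csf1r and Cd68. Cd14 averaged -2.57 in undifferentiated cells, -0.011 after 14 days and 0.17 after 28 days. In the same order Csf1r averaged -1.81, -4.42e-05 and 0.29, and Cd68 -0.34, -0.043 and 0.41. The other 3 were not called, among them the pan-leukocyte gene Ptprc, at 0.042 and -0.0057. Of 5 adipocyte markers 1 was higher at both times, Fabp4, which averaged -3.43 in undifferentiated cells, 0.069 after 14 days and 0.20 after 28 days. The other 4 were not called, and the list's median log2 fold changes were 0.080 and 0.036, with list means of -0.74 to -0.66 in undifferentiated arrays, -0.0068 to 0.057 after 14 days and -0.029 to 0.10 after 28 days. Of 7 osteoblast markers, 1 was higher and 1 lower at both times (0 higher and 1 lower with quantile normalization repeated). The higher gene was Alpl, which averaged -0.41 in undifferentiated cells, 0.087 after 14 days and 0.052 after 28 days. The lower gene was Col1a1, which averaged 0.25, -0.0085 and -0.13 in the same order. The other 5 were not called. Of 8 measured stromal markers 3 were higher and 2 lower at both times, with median log2 fold changes of 0.14 and 0.11. The largest changes went both ways. Cd44 averaged 2.26 in undifferentiated cells, -0.032 after 14 days and -0.33 after 28 days. In the same order Cxcl12 averaged 0.86, -0.017 and -0.062, Pdgfra -1.27, 0.0019 and 0.15, and Vcam1 -0.75, 0.028 and 0.15. The part of any of these cells in the changes of the 10 genes was not tested.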

How the data were processed

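Total RNA of 9 cultures (mean RNA integrity number 9.9) was biotin-labelled and measured on arrays, per the labels' protocols. The authors deposited log2 values made with RMA, per the submitters' processing notes; its software, version and genome build were not given in the sources used here. Base 2 is assumed, since that is RMA's base. In the deposited table all 33794 probe sets have a median of 0 across arrays, so the centring is read from the values; direction is not stated. Fkbp5, a gene induced by dexamethasone, was 2.67-fold higher at 14 days with the direction used.

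Probe sets with 1 gene (23521; 1814 had several and 8459 none) were averaged per gene, and 23328 matched RefSeq by Entrez number, with 0 symbols changed. limma 3.58.1 in R 4.3.3 fitted 1 mean per group, with p-values adjusted over 22180 genes. The fitting code was first run on data with known answers. The series text calls the replicates independent; p-values measure the spread between these cultures of 1 clone, and the number of arrays limits precision.

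The 10 genes and all lists were chosen with earlier results of these data known. Named from each list are up to 4 called genes per comparison with the largest change and relatives of the 10 genes where their family is described. The 3 nearest genes of each of the 8 genes called by the F test are named too. Mkx, Panx3, Runx3, Ihh, Foxo3 and Clic5 were also named, outside this rule and after their values were seen. So were, from the marker lists, Alpl, Col1a1, Fabp4, Ptprc, Cd14, Csf1r, Cd68, Cd44, Cxcl12, Pdgfra and Vcam1. Same-numbered replicates were not paired: their deviations correlated at -0.14 to 0.068 over 9 pairs. Alternatives were quantile normalization again, 1 probe set per gene, fits of the 2 groups compared, a replicate block, a stricter threshold, a test against a 1.5-fold change, robust variances, array weights, leaving out genes with ties, and leaving out each array. A filter on dim probes was not run, since centred values give no brightness.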

Additional observations from a re-analysis of the deposited data

Results flagged for a closer look

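Prg4 differed between 28-day and 14-day cells by a direct test: 28 minus 14 days gave 0.74 on the log2 scale (limma, SE 0.096, adjusted p = 0.00116), with all 3 of the 28-day arrays above all 3 of the 14-day arrays. The call was kept with each of the 9 arrays left out in turn, at values of 0.70 to 0.81.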

How the results depend on the processing

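The number of the 10 genes called was 6 at 14 days, 8 at 28 days and 1 between 28 and 14 days. Quantile normalization again gave 3 and 5 for the first 2 comparisons, with 5200 and 5662 of all genes called in place of 7920 and 8845. Between 28 and 14 days it gave 1, with 2048 of all genes called in place of 1639. Since it gives arrays of unlike SD the same distribution, lost and gained calls can come from the step itself. Testing against a change of 1.5-fold gave 3, 3 and 0 of the 10 genes, with 1582, 2010 and 28 of all genes. At an adjusted p under 0.01, 813 genes were called between 28 and 14 days in place of 1639. With each array left out in turn, the counts of the 10 genes ran from 5 to 6 at 14 days, from 7 to 8 at 28 days and from 1 to 1 between 28 and 14 days. Those of all genes ran from 7115 to 7955, from 8177 to 8689 and from 991 to 1573, the lowest last counts being 991 and 1017 without day-14 replicate 1 and replicate 2. For single genes, 496 of 534 results kept direction and call, 28 lost a call and 1 gained one. The other 9 changed sign, all of them values near 0 that were not called, and the cause was not tested. At 28 days Acan was at -0.0093 and Tnmd at -0.0048 without day-28 replicate 2, within ranges over left-out arrays of -0.0093 to 0.078 and -0.0048 to 0.036. Between 28 and 14 days these ranges were -0.018 to 0.081 for Chad, -0.060 to 0.019 for Matn2, -0.044 to 0.14 for Scx and -0.0092 to 0.032 for Tnmd, and Matn2 was at 0.0068 with array weights. Some of the 534 results could not change direction. Each of the 10 genes has 1 probe set, and leaving out an array of the third group leaves a fold change as it was. A gene not called also cannot gain a call at the stricter threshold or in the 1.5-fold test. With a replicate block Chad at 14 days lost its call (adjusted p = 0.0537), leaving 5, 8 and 1 of the 10 genes called, and 7846, 8726 and 1390 of all genes. The arrays were taken to share only a replicate number, since 0 of 9 same-numbered pairs correlated above 0.1. In each comparison every array of the first-named group was set against the arrays of the other group. The best match had the same number in 5 of these 9 cases. Between 28 and 14 days every 28-day array matched its own number best, at correlations of 0.068, 0.015 and 0.053. Sox6 and Acan, with tied values, were not tested where genes with ties were left out. The number of arrays limits the precision, and signal over background is unknown for centred values.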

Other observations

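Relatives of the 10 genes outside the SOX family mostly were not called. That also holds for all genes, of which 35.7% were called at 14 days and 39.9% at 28 days. At 28 days the matrilin genes Matn1, Matn3 and Matn4 were at -0.13, 0.0029 and -0.023 on the log2 scale, with limma adjusted p-values of 0.438, 0.971 and 0.754. Of the proteoglycans related to aggrecan, Vcan, the gene of versican, was at -0.42 (limma, SE 0.064, adjusted p = 0.000309), while the brain genes Bcan and Ncan were at 0.029 and -0.063, not called. Cnmd, the cartilage relative of Tnmd, was at 0.0022, not called.

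Among transcription factor genes of the same class as Scx, Twist2 was at -0.71 at 14 days (limma, SE 0.092, adjusted p = 0.000120) and at -1.03 at 28 days (limma, SE 0.092, adjusted p = 5.99e-06). Its 14-day call was lost with quantile normalization repeated (limma adjusted p = 0.278). Tcf21 was higher by 0.46 at 14 days (limma, SE 0.058, adjusted p = 9.17e-05) and by 0.51 at 28 days (limma, SE 0.058, adjusted p = 3.73e-05). Twist1, Msc and Tcf15 were not called at either time.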
